A study of Mus musculus with 8 samples.

Results

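Glial connexins and pannexin were followed in mouse corpus callosum, a myelinated fibre tract between the hemispheres, after 1 week of cuprizone. The set held 6 genes of 23410 transcript clusters tested: the oligodendrocyte connexins Gjc3 and Gjb1, the astrocyte connexins Gja1, Gjb6 and Gjb2, and the pannexin Panx1. Each was represented by a transcript cluster with exactly 1 gene symbol in the platform annotation, and each of the 6 had 1 such cluster. Cuprizone binds copper and, given in the diet, injures oligodendrocytes. The cuprizone group was made up of 4 arrays from male wild-type C57BL/6 mice fed 0.25% cuprizone for 1 week. The control group was made up of 4 arrays from male wild-type C57BL/6 mice on normal diet. An age of 8 weeks was given for all. Labels call the arrays biological replicates and do not say whether RNA of several mice was pooled. Whole dissected tissue was measured, so fewer cells of a type and less RNA per cell cannot be told apart.

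Connexins are membrane proteins that assemble in rings called hemichannels, and hemichannels of adjoining cells dock into gap junctions that pass ions and small metabolites. In white matter, astrocytes are coupled to each other mainly by Cx43, the product of Gja1, and Cx30, the product of Gjb6. Oligodendrocytes make Cx32, the product of Gjb1, and Cx29, the product of Gjc3. Junctions between the cell types, among them those that pair Cx32 with Cx30, are thought to carry potassium and metabolites between myelin and the astrocyte network. Pannexins resemble connexins in the membrane but mostly form channels of a single cell that release ATP.

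Levels are log2 values after normalization of the arrays, on which a difference of 1 is a doubling, and levels of different genes are not compared. A gene was called where limma, a linear model with variances moderated across clusters, gave an adjusted p under 0.05 over all 23410 clusters. The array medians lay between 7.44 and 7.49. Myelin, which defines the labelled tissue, was represented by Mbp, at 10.67 to 11.21 on the cuprizone arrays and 12.17 to 12.36 on the control arrays. Transthyretin, Ttr, a marker of the choroid plexus, varied within both groups, from 9.84 to 12.19 on the cuprizone arrays and from 9.56 to 12.58 on the control arrays. It was chosen for mention after its values were seen.

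Of the 6 genes 3 fell, Gjb1, Gjc3 and Gja1, and 1 rose, Gjb2, while Gjb6 and Panx1 did not pass the test. Over all clusters tested 8.22% were called, 4.71% higher and 3.52% lower. The cuprizone and control arrays did not overlap for 5 of the 6 genes, 4 of them lower and 1 higher with cuprizone. Over all clusters 15.3% did not overlap, 7.09% lower and 8.24% higher. The median log2 fold change was -0.27 over the 6 genes and -0.01 over all clusters.

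**Figure D1:**
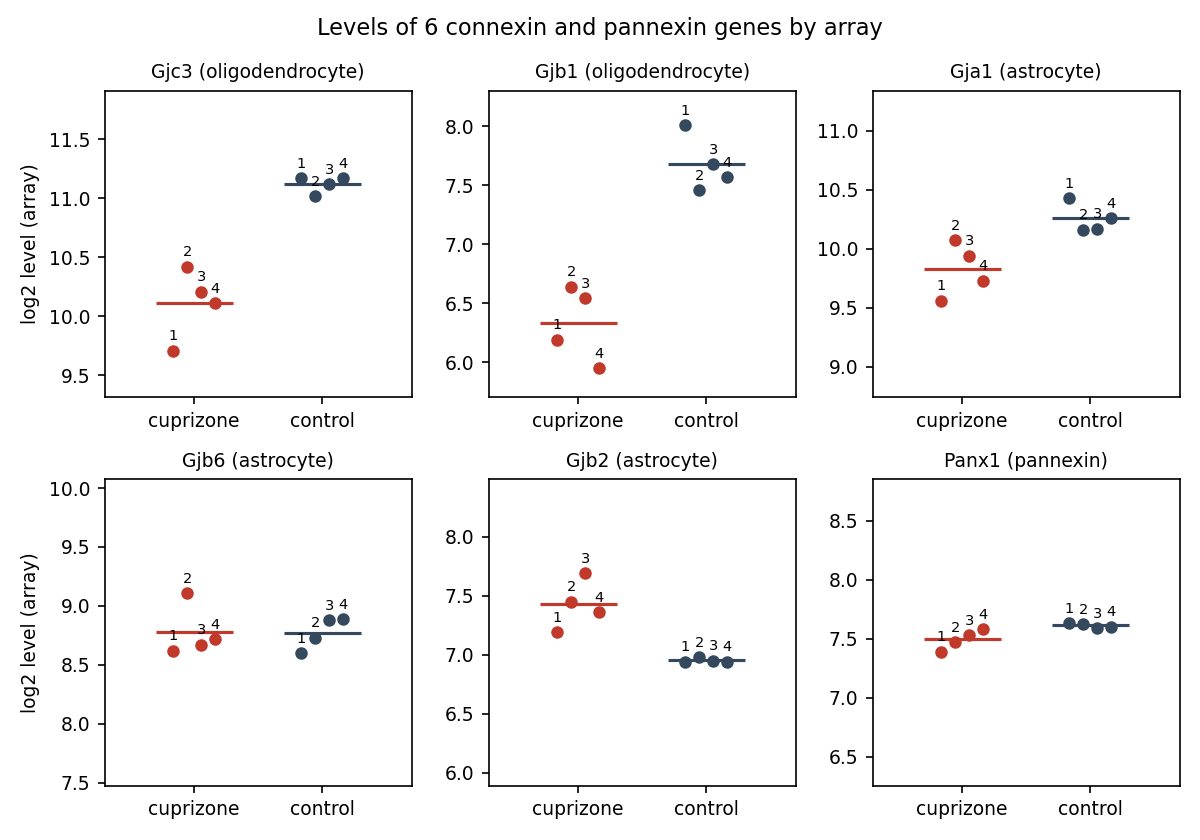
Log2 level of each gene on every array, with cuprizone left and control right in each panel; points are arrays numbered by replicate, horizontal bars are means of 4 arrays, and every panel spans the same number of log2 units. The oligodendrocyte connexins Gjc3 and Gjb1 sit clearly lower on all 4 cuprizone arrays, Gja1 lower by a narrow gap of 0.10, Gjb2 higher on all 4, and Gjb6 overlaps.

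Gjb1 encodes Cx32, which joins successive layers of the myelin sheath and couples oligodendrocytes to astrocytes. Its log2 level was 6.19, 6.64, 6.54 and 5.95 on cuprizone replicates 1 to 4, and 8.01, 7.46, 7.68 and 7.57 on control replicates 1 to 4. All cuprizone arrays lay below all control arrays, with a gap of 0.83 between the highest cuprizone and the lowest control array. The mean was 6.33 ± 0.32 with cuprizone and 7.68 ± 0.24 in controls (SD, n = 4 each). This was a 2.55-fold fall, with a log2 fold change of -1.35 ± 0.15 (SE) and a limma adjusted p of 0.000301. The 95% interval of the fall ran from 2.01-fold to 3.23-fold.

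Gjc3 encodes Cx29, found in mice on the innermost membrane of the myelin sheath facing the axon. The log2 level of Gjc3 was 9.71, 10.42, 10.21 and 10.11 on cuprizone replicates 1 to 4, and 11.17, 11.02, 11.12 and 11.17 on control replicates 1 to 4. Its groups did not overlap either, and the control arrays lay much closer together than the cuprizone arrays. The mean was 10.11 ± 0.30 with cuprizone and 11.12 ± 0.07 in controls (SD, n = 4 each). Gjc3 fell 2.01-fold, with a log2 fold change of -1.01 ± 0.12 (SE) and a limma adjusted p of 0.000462, and the 95% interval ran from 1.67-fold to 2.43-fold. Leaving out any of the 8 arrays left Gjc3 and Gjb1 called, with log2 fold changes of -1.11 to -0.87 for Gjc3 and -1.45 to -1.22 for Gjb1.

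Promoter windows of these genes are shown because the pair moved in the same direction, and each covers the 250 bases before the transcription start in RefSeq GRCm38.p6, read 5′ to 3′ on the strand of the gene. Capitals mark matches, on either strand, to a SOX core spelled ACAAAG or, in its other searched form, ACAATG. They also mark the AP-1 motif, searched as TGANTCA, and the GC box, searched as GGGCGG. The last motifs were the box named for its letters, CCAAT, and the TATA box, searched as TATAAA. SOX factors such as Sox10 act in the oligodendrocyte lineage. RefSeq lists 4 starts for Gjb1, and the most downstream is printed because it held the most matches.
Gjc3, chr5:137963099-137963348, minus strand: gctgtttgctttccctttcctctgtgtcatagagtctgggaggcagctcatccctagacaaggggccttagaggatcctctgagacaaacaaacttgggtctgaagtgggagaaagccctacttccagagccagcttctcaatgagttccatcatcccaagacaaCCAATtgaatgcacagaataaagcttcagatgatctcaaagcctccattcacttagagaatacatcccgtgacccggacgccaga
Gjb1, chrX:101383482-101383731, plus strand: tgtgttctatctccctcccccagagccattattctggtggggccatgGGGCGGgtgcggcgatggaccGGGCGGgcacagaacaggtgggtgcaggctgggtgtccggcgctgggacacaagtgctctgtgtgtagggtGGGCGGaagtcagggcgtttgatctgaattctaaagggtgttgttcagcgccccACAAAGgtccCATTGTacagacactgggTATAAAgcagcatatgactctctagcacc
The printed Gjb1 window held 2 SOX cores, 3 GC boxes and 1 TATA box, and no match overlapped another. Of the other Gjb1 windows, the most upstream held 1 SOX core and 1 CCAAT box, the next held 1 CCAAT box and the remaining window held none of the motifs. The Gjc3 window held 1 CCAAT box and no other motif. Among 32851 mouse promoter windows of the same length, 25.2% held a SOX core, 32.7% a GC box, 33.8% a CCAAT box and 12.4% a TATA box. These shares are for single windows, while the printed Gjb1 window was picked from 4 by its matches. They therefore understate how often a window picked in that way holds a motif.

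Beside the oligodendrocyte connexins, markers of the mature oligodendrocyte fell in 14 of 14 measured members. Over all clusters 3.52% fell and 4.71% rose. The 14 markers had a median log2 fold change of -2.17 and a range of -3.78 to -1.28. Gjc3 fell by less than all 14 of them, and Gjb1 by less than 13 of the 14, the exception being Mbp at -1.28. The genes differ in brightness, with control means of 7.68 for Gjb1, 11.12 for Gjc3 and 12.2 for Mbp. Whether brightness affected this order was not tested. Mog, whose product sits on the outermost myelin lamella, fell by 3.78 ± 0.18, and Fa2h, which makes hydroxylated fatty acids for myelin lipids, by 2.60 ± 0.12 on the log2 scale (SE). Ppp1r14a, a phosphatase inhibitor, fell by 2.19 ± 0.11. Of 9 measured genes of the wider oligodendrocyte lineage 3 fell and none rose, namely Enpp6 (-0.75 ± 0.07), Bcas1 (-0.76 ± 0.11) and Olig1 (-0.50 ± 0.09), with a list median of -0.14. These markers were 14 and 9 genes of lists that do not hold Gjc3 or Gjb1.

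The arrays also differed within the cuprizone group. The mean of the mature oligodendrocyte list stood at -2.77, -1.94, -2.18 and -2.35 log2 units from the control mean on cuprizone replicates 1 to 4. Gjc3 stood at -1.41, -0.70, -0.91 and -1.01 on the same arrays, the same order from lowest to highest. Gjb1 stood at -1.49, -1.04, -1.14 and -1.73, so that replicate 2 was again highest and replicate 4, not replicate 1, was lowest. On the control arrays the list mean lay between -0.15 and 0.12.

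Gja1 encodes Cx43, the main gap junction protein of astrocytes. The log2 level of Gja1 was 9.56, 10.07, 9.94 and 9.73 on cuprizone replicates 1 to 4, and 10.43, 10.16, 10.17 and 10.26 on control replicates 1 to 4. The groups did not overlap, but only 0.10 separated cuprizone replicate 2 from control replicate 2. The mean was 9.83 ± 0.22 with cuprizone and 10.26 ± 0.12 in controls (SD, n = 4 each). Gja1 fell 1.35-fold, with a log2 fold change of -0.43 ± 0.11 (SE) and a limma adjusted p of 0.0288. It stayed lower in all alternatives but was no longer called in 7 of 19. The adjusted p was 0.0626 without cuprizone replicate 1, 0.0774 without cuprizone replicate 4, 0.0839 without control replicate 1 and 0.0705 without control replicate 4.

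Gjb2 encodes Cx26, found in astrocytes and in the cells of the leptomeninges. The log2 level of Gjb2 was 7.19, 7.45, 7.69 and 7.36 on cuprizone replicates 1 to 4, and 6.94, 6.98, 6.95 and 6.94 on control replicates 1 to 4. All cuprizone arrays were higher than all control arrays, and the control arrays spanned only 0.04. The mean was 7.43 ± 0.21 with cuprizone and 6.95 ± 0.02 in controls (SD, n = 4 each). Gjb2 rose 1.39-fold, with a log2 fold change of 0.47 ± 0.09 (SE) and a limma adjusted p of 0.00770, and the 95% interval ran from 1.21-fold to 1.60-fold. It stayed called without any of the 8 arrays, at 0.38 to 0.55.

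Gjb6 encodes Cx30, the partner of Cx32 at junctions with oligodendrocytes. The log2 level of Gjb6 was 8.62, 9.11, 8.67 and 8.72 on cuprizone replicates 1 to 4, and 8.60, 8.73, 8.88 and 8.89 on control replicates 1 to 4. The groups overlapped, with cuprizone replicate 2 the highest of the 8 arrays and control replicate 1 the lowest. The mean was 8.78 ± 0.22 with cuprizone and 8.77 ± 0.14 in controls (SD, n = 4 each), and the limma adjusted p was 0.988. The 95% interval of the log2 fold change ran from -0.23 to 0.24, which leaves changes of up to 1.18-fold in either direction within it. Without cuprizone replicate 2 the log2 fold change of Gjb6 was -0.11 with a limma adjusted p of 0.533.

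Promoter windows of Gja1 and Gjb2 are shown in the same way, as the astrocyte connexins that moved in opposite directions.
Gja1, chr10:56377050-56377299, plus strand: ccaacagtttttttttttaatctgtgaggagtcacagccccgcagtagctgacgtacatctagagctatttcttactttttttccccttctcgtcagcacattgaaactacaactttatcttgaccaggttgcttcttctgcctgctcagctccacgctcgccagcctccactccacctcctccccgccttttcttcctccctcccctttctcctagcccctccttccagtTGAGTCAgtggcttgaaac
Gjb2, chr14:57104703-57104952, minus strand: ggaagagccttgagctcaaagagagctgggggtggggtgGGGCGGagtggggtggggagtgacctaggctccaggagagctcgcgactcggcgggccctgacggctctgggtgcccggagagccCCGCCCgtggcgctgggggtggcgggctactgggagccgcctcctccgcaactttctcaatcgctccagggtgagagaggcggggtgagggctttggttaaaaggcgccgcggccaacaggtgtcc
The Gja1 window held 1 AP-1 motif, 19 to 13 bases before the start, a motif found in 6.7% of all windows. The Gjb2 window held 2 GC boxes and none of the other motifs, and 69.2% of its bases were G or C, against 50.0% in the Gja1 window. In the GRCm38.p6 gene table Gjb2 and Gjb6 are neighbours on chromosome 14, next to Gja3, a connexin of the lens. Gja3 had a log2 fold change of -0.12 ± 0.08 (SE) with a limma adjusted p of 0.449.

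Astrocyte markers moved beside these connexins in both directions. Of 11 measured genes of astrocyte identity, a list without connexins, 4 rose and 3 fell, with a median log2 fold change of -0.10. Over all clusters 4.71% rose and 3.52% fell. The urea transporter Slc14a1 rose (1.19 ± 0.12), while Slc1a2, which clears glutamate (-0.60 ± 0.07), and Glul, which converts it to glutamine (-0.49 ± 0.06), fell. Of 10 reactive astrocyte genes 9 rose and none fell, with a median of 1.35, among them the matrix protein gene Tnc (2.68 ± 0.12), the intermediate filament gene Gfap (0.96 ± 0.06) and the protease inhibitor Serpina3n (1.80 ± 0.13). The mean of the reactive list stood 1.48, 1.20, 1.55 and 1.37 above the control mean on cuprizone replicates 1 to 4. Both this mean and Gjb2 were highest on replicate 3, but the list was lowest on replicate 2 and Gjb2 on replicate 1. Among controls, replicate 2 had a list mean of 0.35, above the range of -0.17 to -0.07 of the rest, and a Gjb2 deviation of 0.03. The part of reactive astrocytes in the values of Gja1 and Gjb2 was not tested.

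Since Gjb2 is also a gene of the leptomeninges, markers of that tissue were measured beside it. Of 11 members 1 fell and none rose, with a median of -0.02, while over all clusters 3.52% fell and 4.71% rose. The list mean lay between -0.30 and 0.07 on the cuprizone arrays and between -0.08 and 0.05 on the control arrays. The 1 that fell was Ptgds, a prostaglandin synthase that oligodendrocytes also make (-1.05 ± 0.18, SE). The retinoic acid enzyme Aldh1a2 had a log2 fold change of 0.43 ± 0.12 with a limma adjusted p of 0.0584. Igf2, of the same list, went the other way, at -0.34 ± 0.14 with a limma adjusted p of 0.201. On cuprizone replicate 3 Aldh1a2 was at its highest, 7.24, and Igf2 at its lowest, 8.10. With the mean of this list as a covariate the log2 fold change of Gja1 was -0.35 with a limma adjusted p of 0.0932, and with the neuronal mean -0.38 with an adjusted p of 0.0637. Gjb2 stayed called under both. The leptomeningeal mean takes in the fall of Ptgds, so this covariate carries part of the diet difference. For Gja1 and Gjb2 it therefore cannot separate leptomeningeal content from diet.

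**Figure D2:**
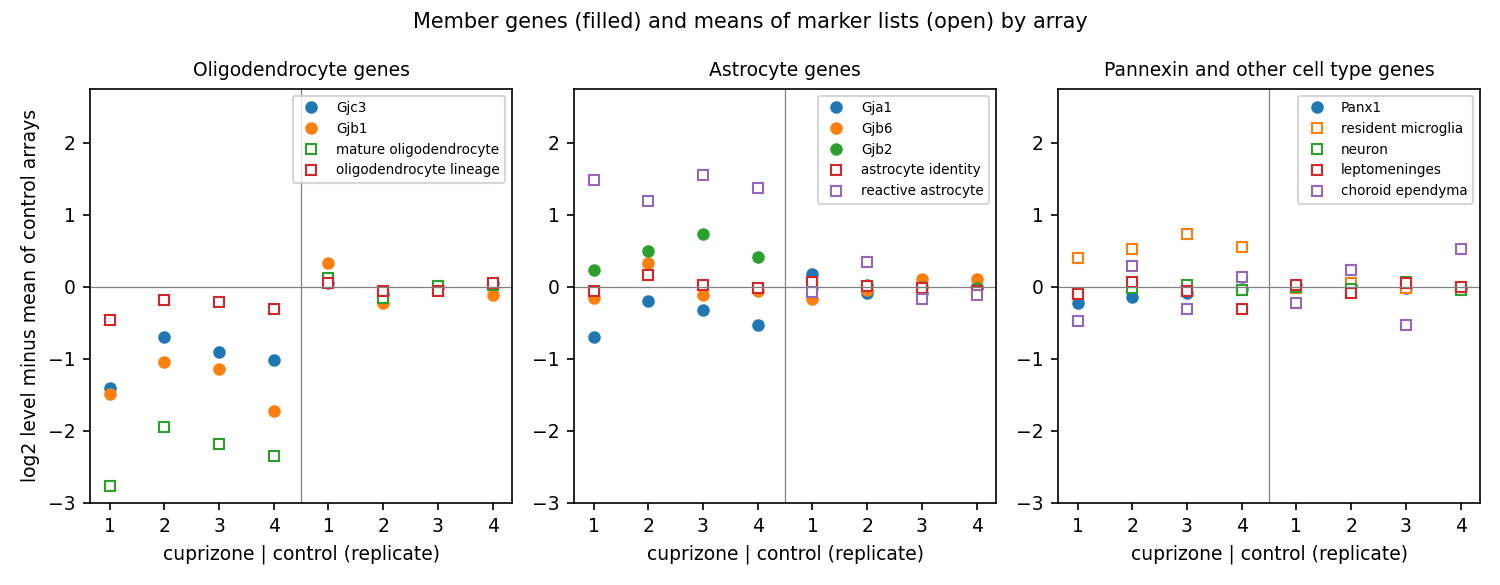
Deviation of each gene (filled circles) and of the mean of each marker list (open squares) from the mean of the control arrays, in log2 units, on cuprizone replicates 1 to 4 (left of each panel) and control replicates 1 to 4 (right). Gjc3 and Gjb1 lie below 0 on all cuprizone arrays but above the mature oligodendrocyte mean. Gja1 lies below 0 and Gjb2 above 0 on all cuprizone arrays, and Gjb6 lies on both sides of 0.

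Differences between an oligodendrocyte and an astrocyte connexin were then taken within each array, relative to the control mean, for all 6 pairs. They are given as a description with no test. In 6 of 6 pairs the cuprizone arrays lay below the control arrays without overlap. The pairs recombine genes already described singly, so they are not independent of those results or of each other. No share over other gene pairs was taken. Gjb1 minus Gja1 was -0.80, -0.86, -0.82 and -1.21 on cuprizone replicates 1 to 4 and 0.15, -0.12, 0.09 and -0.12 on control replicates 1 to 4. The mean difference was -0.92 for this pair and -0.58 for Gjc3 minus Gja1, the pair that parted least. It was -1.36 for Gjb1 minus Gjb6 and -1.01 for Gjc3 minus Gjb6. The products of Gjb1 and Gjb6 pair at junctions between oligodendrocytes and astrocytes. The widest parting was that of Gjb1 minus Gjb2, at -1.82, with cuprizone arrays between -2.14 and -1.55 and control arrays between -0.24 and 0.34.

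Pairs within a cell type were added after the values were seen. Gjb2 minus Gja1 was 0.94, 0.69, 1.06 and 0.93 on cuprizone replicates 1 to 4, against -0.18 to 0.12 on the control arrays. Gja1 minus Gjb6 was lower by 0.44 on average, but only just without overlap, with -0.21 on cuprizone replicate 3 and -0.19 on control replicate 3. Gjb1 minus Gjc3 averaged -0.34 and overlapped between the groups, from -0.72 to -0.08 with cuprizone and from -0.16 to 0.28 in controls. Whether Gjb1 and Gjc3 fell by different amounts was not tested.

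Panx1 encodes a channel that releases ATP and is opened by caspase cleavage in dying cells and by P2X7 receptor signalling. The log2 level of Panx1 was 7.39, 7.47, 7.53 and 7.58 on cuprizone replicates 1 to 4, and 7.63, 7.62, 7.59 and 7.60 on control replicates 1 to 4. The cuprizone arrays all lay below the control arrays, but the gap between the groups was 0.01. The mean was 7.49 ± 0.08 with cuprizone and 7.61 ± 0.02 in controls (SD, n = 4 each), and Panx1 did not pass the test, with a log2 fold change of -0.12 ± 0.06 (SE) and a limma adjusted p of 0.270. The 95% interval ran from -0.24 to 0.01. It passed under none of 19 alternatives.

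Of 13 measured genes that act with Panx1 in ATP signalling and the inflammasome, 4 rose and 1 fell, with a list median of 0.17. Over all clusters 4.71% rose and 3.52% fell. P2ry6, a receptor for UDP on microglia, rose by 0.58 ± 0.09 (SE), with levels of 7.32 to 7.72 on the cuprizone arrays and 6.78 to 7.07 on the control arrays. Casp1, the inflammasome protease, rose by 0.43 ± 0.09, and its substrate gene Il1b by 0.49 ± 0.10. Il18, another substrate, fell by 0.53 ± 0.07 on the log2 scale. P2ry2, a receptor for ATP and UTP, rose by 0.38 ± 0.10 with a limma adjusted p of 0.0325, which lay between 0.0598 and 0.0945 without 6 of the 8 arrays, all but cuprizone replicates 2 and 4. In all, the P2ry2 call was lost in 9 of 18 alternatives, among them the neuronal covariate (adjusted p = 0.0720) and the leptomeningeal covariate (adjusted p = 0.0847). P2rx7 had a log2 fold change of 0.21 ± 0.09 with a limma adjusted p of 0.211. Of 9 microglial markers 7 rose and none fell, with a median of 0.57. Among them were Ly86 (1.18 ± 0.09), the phosphatase Ptprc (0.99 ± 0.08) and the growth factor receptor Csf1r (0.61 ± 0.06). The microglial and purinergic lists are not separate, as both hold P2ry12. It did not rise, at -0.06 ± 0.09 with a limma adjusted p of 0.789. The mean of the microglial list stood 0.40 to 0.73 above the control mean on the cuprizone arrays, and its part in these values was not tested.

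None of the 13 other connexin and pannexin genes measured passed the test in limma, and none passed an unadjusted p of 0.05. Their log2 fold changes lay between -0.12 and 0.18, with a median of -0.02, and the groups overlapped in all 13. Over all clusters 8.22% were called and 15.3% did not overlap, so finding none among 13 genes is not far from those shares. The neuronal connexin gene Gjd2 was at -0.04 ± 0.09 (SE) and the neuronal pannexin gene Panx2 at 0.04 ± 0.06. The vascular connexin genes were at -0.05 ± 0.06 for Gja4, 0.18 ± 0.09 for Gja5 and 0.17 ± 0.10 for Gjc1. Gja5 was called without cuprizone replicate 4, at 0.27 with a limma adjusted p of 0.0311. The remaining genes, Gja3, Gja6, Gja10, Gjb5, Gjd3, Gjd4, Gje1 and Panx3, lay between -0.12 and 0.01. Of 9 endothelial and mural markers none was called and their median was -0.11, and of 10 neuronal markers none was called and their median was -0.04. With 8.22% of all clusters called, lists of this length can hold none.

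**Figure D3:**
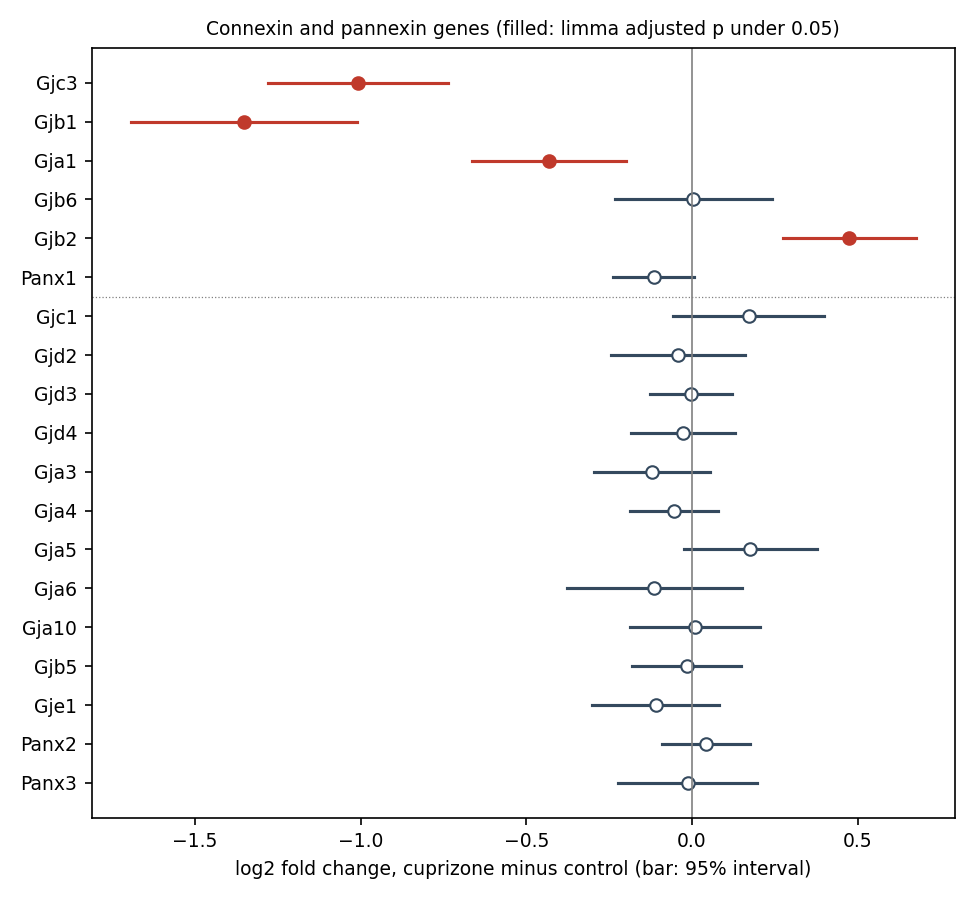
Log2 fold change, cuprizone minus control, of the 6 genes (above the dotted line) and of 13 other connexin and pannexin genes, with 95% intervals from limma; filled points passed an adjusted p of 0.05. Gjc3, Gjb1 and Gja1 lie left of 0 and Gjb2 right of it, while the intervals of all genes below the line include 0.

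Of 14 measured genes for proteins that bind connexins or share their sites in glia, 1 was called, against 8.22% of all clusters. The list median was -0.04. Tjp1, whose product ZO-1 is a scaffold that binds Cx43, rose by 0.24 ± 0.06 (SE, limma adjusted p = 0.0365). Its level lay between 9.94 and 10.10 on the cuprizone arrays and between 9.68 and 9.86 on the control arrays. This call was lost in 11 of 19 alternatives, with an adjusted p of 0.0592 to 0.102 without any 1 of cuprizone replicates 1, 3 and 4 and control replicates 2, 3 and 4, and of 0.0578 with the arrays centred on their medians. Kcnj10, the potassium channel of astrocytes and oligodendrocytes, was at -0.13 ± 0.13, and the water channel gene Aqp4 at -0.26 ± 0.16.

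Levels of the 6 genes varied more among the cuprizone arrays than among the control arrays in 6 of 6 cases, against 56.4% of all clusters. The median SD over the genes was 0.22 with cuprizone and 0.10 in controls, and over all clusters 0.10 and 0.09. Cuprizone replicate 1 was the lowest cuprizone array for Gjc3, Gja1, Gjb6, Gjb2 and Panx1, and cuprizone replicate 2 the highest for Gjc3, Gjb1, Gja1 and Gjb6.

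For each gene the 3 most similar genes were taken by Pearson correlation over the 8 arrays, among 18736 candidate clusters. For a gene that differs between the diets such a correlation takes in that difference, and all points share the normalization. Gjc3 was most like Mobp, a myelin protein gene (r = 0.998), Myrf, a transcription factor of myelination (r = 0.996), and Bin1 (r = 0.995), and 225 candidates reached 0.95. Gjb1 was most like Plpp2 (r = 0.995), Adssl1 (r = 0.994) and Lgi3 (r = 0.993), with 193 candidates at 0.95 or above. Gja1 was most like Gprc5b (r = 0.990), the neurotensin receptor gene Ntsr2 of astrocytes (r = 0.987) and Trak2 (r = 0.984). Gjb2 was most like the integrin gene Itgb5 (r = 0.987), Hadha (r = 0.985) and Ltv1 (r = 0.984). For Gjb6 the closest were Cmah (r = 0.971), Inppl1 (r = 0.954) and Cracr2b (r = 0.9495), and only 2 candidates reached 0.95, while for Panx1 they were Brd9 (r = 0.976), Dcaf17 (r = 0.967) and Adamts13 (r = 0.966), with 6 candidates at 0.95 or above.

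**Figure D4:**
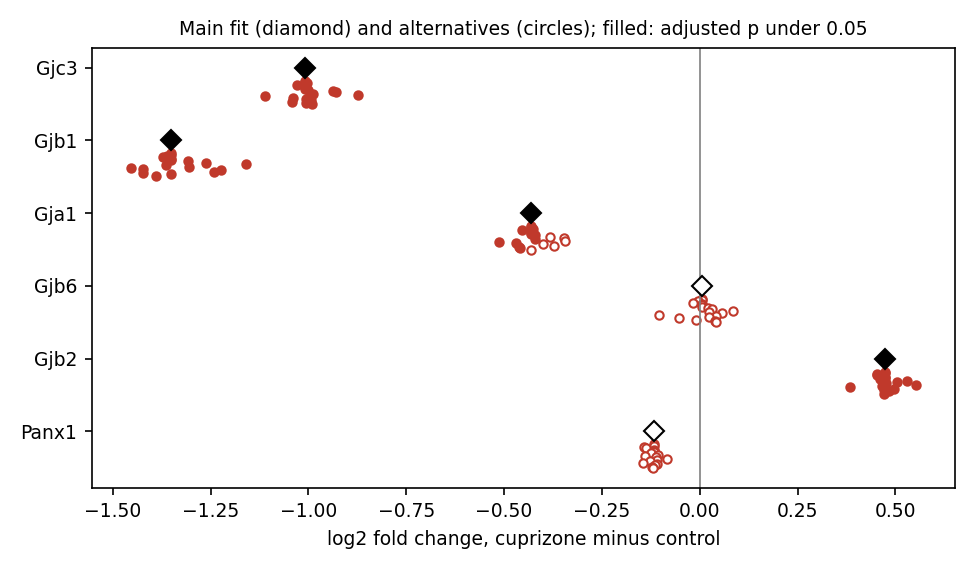
Log2 fold change, cuprizone minus control, of each gene in the main fit (diamonds) and under up to 19 alternatives (circles), filled where the limma adjusted p was under 0.05. Gjc3 and Gjb1 stay filled and left of -0.87, Gjb2 stays filled and right of 0, Gja1 is open under 7 alternatives, and Gjb6 lies on both sides of 0.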

How the data were processed

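Total RNA of the corpus callosum, 150 ng per array, was amplified, labelled and hybridised to Affymetrix Mouse Gene 1.0 ST arrays, per the labels' protocols. The deposited values are log2 levels per transcript cluster made by the authors, and the submitters' processing notes name RMA, Expression Console and Transcriptome Analysis Console. If RMA normalized the arrays to a common distribution, a change common to most genes would be removed. No batch is given in the sources used here, and no value of signal against background was at hand. Precision is set by having 4 arrays a group.

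Of 28944 clusters, 23410 with at least 1 symbol in the platform annotation were tested with limma 3.58.1 in R 4.3.3, at default settings, two-sided, without covariates or filter, with Benjamini-Hochberg adjustment. Of 21789 clusters with exactly 1 symbol, 21698 matched a RefSeq gene by Entrez identifier. The steps were tested on simulated data. Arrays of a group correlated at 0.9952 to 0.9971, and no arrays were identical. P-values measure only the spread between these arrays.

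The genes and lists were chosen with earlier results of these data known. Text names the 6 genes, all measured connexins and pannexins, the called members of the connexin partner and purinergic lists, at most 3 genes of lowest p per marker list, and 3 similar genes each. Aqp4, Kcnj10, P2rx7, P2ry12, Mbp and Ttr were named outside that rule, after their values were seen. Alternatives were 11 other settings and leaving out each of the 8 arrays.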

Additional observations from a re-analysis of the deposited data

Results flagged for a closer look

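The log2 level of P2ry2 on control replicate 1 was 6.47, against 6.64 to 6.67 on the other control arrays, a gap larger than expected within 4 arrays by Dixon's test. In all, 25 genes were examined in both groups, 50 groups of 4 arrays, and this was the 1 that stood apart. Chance alone would be expected to mark about 1 in 20 such groups. Without control replicate 1 the log2 fold change of P2ry2 was 0.33, with a limma adjusted p of 0.0939.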

How the results depend on the processing

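Over 19 alternatives, the choroid and ependyma covariate among them chosen after seeing the data, Gjc3 stayed called at -1.11 to -0.87. Gjb1 and Gjb2 stayed called in the 18 that kept them, since both are dimmer than the median cluster. Gja1 stayed lower at -0.51 to -0.34 without any 1 array, and was no longer called, beside the 4 arrays named above, with the neuronal covariate (-0.38) and the leptomeningeal covariate (-0.35). Replicate numbers did not pair the arrays: deviations of same-numbered arrays correlated at -0.186 to 0.21, and 1 of 4 exceeded 0.1. With the replicate number as a block, the Gja1 log2 fold change was -0.43 with a limma adjusted p of 0.0849, and the calls of Tjp1 (adjusted p = 0.0586) and P2ry2 (adjusted p = 0.0849) were lost too. The block ended no other call among the 6 genes and the called genes of the lists. Gjb6, called in none, changed sign when quantile normalized again (-0.00373) and with arrays centred on their medians (-0.0169), and without 1 array it ranged from -0.105 to 0.0575, being -0.0535 without control replicate 1 and -0.0102 without control replicate 2. Counts of called clusters stayed within 1.5 times, at 760 to 1270 higher and 603 to 989 lower. Of 112 values of the 6 genes, 100 kept their direction and call. Counts of called genes ranged from 5 to 7 for astrocyte identity, 7 to 10 for reactive astrocytes and 5 to 8 for microglia. They ranged from 0 to 3 for connexin partners, 1 to 5 for purinergic genes and 1 to 3 for leptomeninges. For the other connexins, neuronal and endothelial lists they ranged from 0 to 1. The mature oligodendrocyte, lineage and choroid counts did not change. The 80 within-array differences moved by less than 1 SD. Among 885 values of list genes that were called 45 lost their call and none changed sign. The cause of these losses was not tested. The 4 arrays a group limit the precision of small differences such as that of Panx1.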
